A study of Mus musculus with 23 samples.

Results

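The spread of gene expression among 10 B-cell precursor leukemias was examined in mice that carry 1 intact Pax5 allele (Pax5+/-). The 10 arrays are those whose titles name leukemic pro-B cells of Pax5+/- mice after irradiation, and they make up 10 of the 23 arrays of the series. Every mouse was irradiated once with 2 Gy at 2 months of age, the RNA came from bone marrow, and each array carries a mouse number of its own. The titles call the cells pro-B cells and the descriptions call them leukemic bone marrow cells, and neither states a sort. Strain and sex are not given in the sources used here. The other 13 arrays, from preleukemic precursors and from wild-type leukemias, were not used, and the 10 leukemias were compared only with each other. In bulk RNA of this kind, fewer cells of a type and less RNA per cell cannot be told apart.

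Pax5 encodes the transcription factor that commits lymphoid progenitors to the B lineage. It switches on B-cell genes such as Cd79a and Blnk and silences genes of other lineages, and it works together with EBF1 and TCF3 (E2A). Loss or mutation of 1 PAX5 allele is frequent in human B-cell precursor acute lymphoblastic leukemia. Leukemias that start from the same inherited lesion can still differ in the later lesions they collect, in their stage of arrest and in the normal marrow cells that surround them.

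Values are log2 intensities of single array probe sets, so that a difference of 1 is a doubling. For each gene 1 probe set was used, and 15114 genes were tested. The 10 arrays had medians between 6.06 and 6.16, and the Pearson correlation between pairs of arrays over the tested genes ran from 0.922 to 0.979, with a median of 0.965 over 45 pairs. The pro-B label was checked on marker genes. Cd79a and Cd79b, the signalling chains of the B-cell receptor, did not fall below 11.00 and 11.69 in any leukemia, Il7r, the interleukin-7 receptor, not below 11.67, and Igll1, a surrogate light chain, not below 10.55, all far above the array medians. Dntt, the terminal transferase of recombining lymphocytes, did not fall below 9.81. Other markers went less clearly with the label. Il2ra, an interleukin-2 receptor chain counted here among the pre-B to immature B genes, had a median of 11.33 (lowest 8.68). Ms4a1 and Cd2 of the same list had medians of 5.74 and 6.08. Rag2, a recombinase subunit, was near the array medians in most leukemias (lowest 5.11, median 6.01), and Vpreb1, the partner of Igll1, and Kit, the receptor of stem cell factor, had lowest values of 6.87 and 7.19. Cd3e of T cells had a median of 6.47, close to the array medians, while the mean of the T cell list reached 7.40 in its highest leukemia. The neutrophil genes Lcn2 and Ngp had medians of 11.38 and 11.46, and their part in the other results was not tested beyond the fit given with the Pax5 slopes.

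The typical gene varied little between the leukemias, and a small group varied widely. The standard deviation (SD) over the 10 leukemias had a median of 0.176 over the tested genes, with quartiles of 0.103 and 0.29. Probe sets at background on all 10 arrays, which numbered 4286, had a median SD of 0.0588 and 99% of them stayed below 0.15, and 8779 tested genes (58.1%) lay above that level. The SD exceeded 1 in 293 genes, or 1.94% of those tested. Among these 293 genes, the highest leukemia stood apart from the other 9 in 44 and the lowest in 17, by Dixon's gap ratio (the gap to the next leukemia over the whole range) at its 95% critical value, while 232 had no leukemia apart. Over all tested genes, the highest stood apart in 1048 (6.93%) and the lowest in 606 (4.01%). In 149 of the 293 the largest gap had at least 2 leukemias on either side, in 98 it lay below the highest leukemia alone and in 46 above the lowest alone.

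The most variable gene was Kcnma1, the pore-forming subunit of the large-conductance calcium-activated potassium channel. Its level ran from 4.87 over a median of 12.76 to 13.44, an SD of 3.57, and 7 leukemias lay above a gap of 3.82 that no leukemia filled. Pcdh11x, a protocadherin on chromosome X, was divided evenly, with 5 leukemias above and 5 below a gap of 4.06 (lowest 4.38, median 6.56, highest 9.65). Most leukemias were high or low in both Pcdh11x and Xist, also on chromosome X. The exceptions were leukemia 10 (9.65 for Pcdh11x, 5.41 for Xist) and leukemia 2 (4.42 and 12.09). Serpinb9d, a serine protease inhibitor of the granzyme B inhibitor clade, was high in 3 leukemias (lowest 4.34, median 4.88, highest 9.70). These genes were close to on or off, with few intermediate values. Kir3dl1 and Kir3dl2, immunoglobulin-like receptors on chromosome X, were high in 3 leukemias each, with highest values of 9.69 and 9.61 against medians of 6.62 and 5.42. Mrgpra1, a G protein-coupled receptor, was low in 2 leukemias, at 5.70 and 7.99, below a gap of 3.43, and had a median of 11.64. Rnase12, of the ribonuclease A family, and Cdh17, a cadherin, were spread more evenly, from 5.22 to 12.29 and from 4.88 to 11.85.

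Other variable genes had 1 leukemia at an extreme. Peg10, a paternally expressed gene derived from a retrotransposon, had a median of 5.71 and reached 12.13 in 1 leukemia, 5.64 above the next. Cxcl9, an interferon-induced chemokine, had a median of 6.08 and reached 11.87, also in 1 leukemia. H2-Ea, an MHC class II chain, ranged from 5.69 over a median of 10.98 to 13.02. Of the 25 genes of largest SD that remained after predicted genes, antigen receptor segments, Xist and Y-linked genes were left out, 7 belonged to the neutrophil marker list, among them Ly6g (5.26, 8.40 and 12.04 as lowest, median and highest), S100a9 (5.93, 9.18 and 11.82) and Lcn2 (7.07, 11.38 and 12.96). Jchain, the joining chain of polymeric antibodies and a gene that PAX5 represses, ran from 7.10 over 10.75 to 12.12, and Cd72, a B-cell coreceptor that PAX5 activates, from 5.87 over 8.73 to 10.78. Both PAX5 targets were among these 25.

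**Figure D1:**
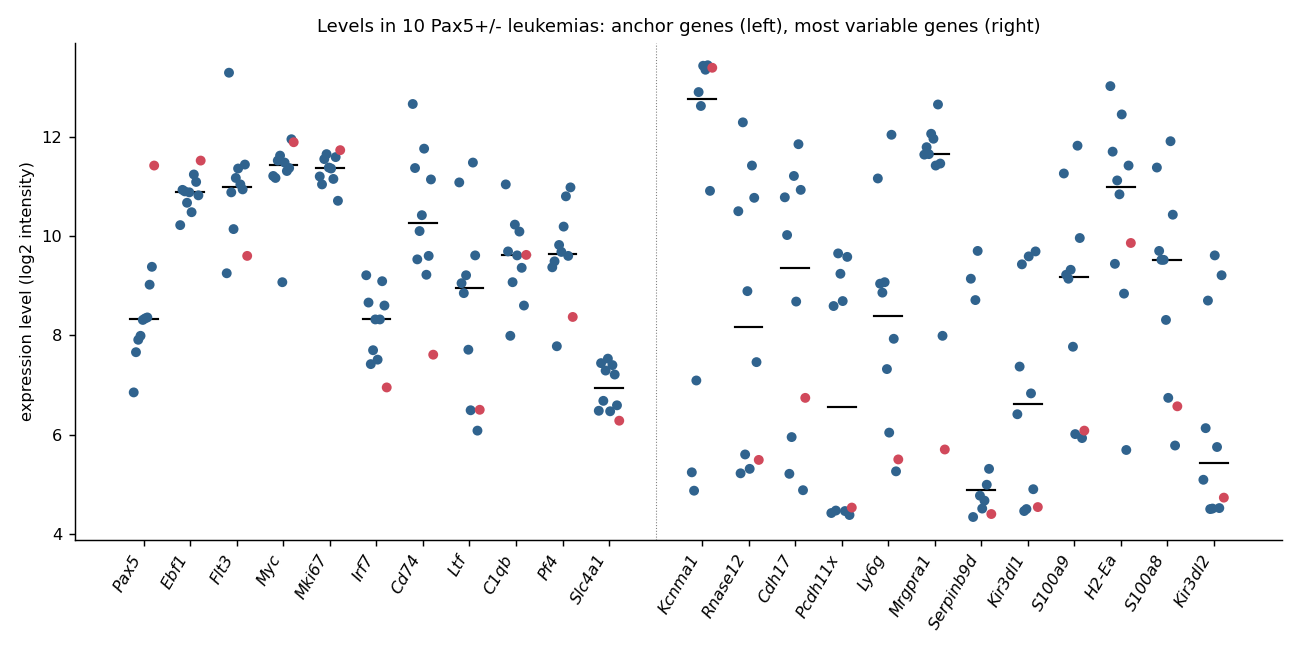
Levels (log2 intensity, vertical axis) of the 11 anchor genes and the first 12 of the 25 variable genes in the 10 leukemias. Each point is 1 leukemia, placed from left to right within a gene in the order of its Pax5 level, the red point is the leukemia with the highest Pax5 level (11.42), and bars are medians. Pcdh11x and Serpinb9d fall into a high and a low set, while Ebf1 and Mki67 span less than Pax5.

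Pax5 itself varied more than nearly all other genes. Its level ran from 6.85 over a median of 8.32 to 11.42, a 23.8-fold range and an SD of 1.23, the 156th largest. The highest leukemia lay 2.04 above the second, with a gap ratio of 0.446 that stayed just under that critical value. Whether the probe set covers the inactivated part of the allele is not given in the sources used here, so the level does not separate the alleles. Ebf1, the factor upstream of and beside Pax5, varied much less, from 10.22 over 10.89 to 11.52 (SD 0.37), and Tcf3 ran from 9.01 over 9.48 to 10.54 (SD 0.39). The amount of Pax5 RNA therefore spread more widely than that of these other B-lineage factors.

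Each gene was then fitted on the Pax5 level over the 10 leukemias (limma, two-sided, Benjamini-Hochberg adjustment over 15113 genes), which gives the change in log2 level per unit of Pax5. A single gene passed at an adjusted p of 0.05, or 0.00662% of those tested. It was Mlkl, the pseudokinase that executes necroptosis. Its level ran from 5.58 over 7.10 to 7.61 and fell by 0.44 ± 0.04 (SE) per doubling of Pax5 (limma, adjusted p = 0.00814). Pearson's r was -0.97 (permutation p = 1.00e-05, the smallest that 100000 permutations can give) and Spearman's rho -0.96 (permutation p = 6.00e-05), and r was -0.87 without the 2 leukemias farthest from the median Pax5 level. The order of the leukemias by Mlkl was nearly the reverse of that by Pax5. The call was lost without leukemia 7, which has the highest Pax5 level (slope -0.337, limma adjusted p = 0.314), with the mouse letter as a fixed term (slope -0.419, limma adjusted p = 0.0937) and with the ranks of Pax5 in place of its level (limma adjusted p = 0.607), although the slope kept its sign. Without that leukemia no gene passed in limma, with 866 genes higher and 790 lower with Pax5 at an unadjusted p below 0.05.

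At an unadjusted p below 0.05, 1062 genes (7.03%) were higher and 580 (3.84%) lower with Pax5. None of the genes named next passed after adjustment. Car2, a carbonic anhydrase, had a slope of -0.82 (limma adjusted p = 0.058) and ran from 6.22 over 9.14 to 9.93, with 1 leukemia, the highest in Pax5, far below the rest. Clic4, an intracellular chloride channel protein, and Tox, a factor of T-cell development, had slopes of -0.13 and -0.68, and Tmem123 one of -0.14. On the other side, Rgp1, part of a Golgi exchange factor complex, followed the Pax5 order in nearly every step, from 7.41 over 7.70 to 8.26 (slope 0.20 ± 0.0292, limma adjusted p = 0.141). Rgp1 had the pattern most like Pax5 of all tested genes, with r = 0.96 over the 10 leukemias and 0.94 without the 2 farthest. Next in likeness came Il19 (r = 0.95), Msmp (0.95), Zdhhc20 (0.94) and Tceanc (0.94), whose SDs were small, between 0.08 and 0.21. Klrb1c, the NK1.1 receptor of natural killer cells, had a slope of 0.94, but it was near background in 9 leukemias (median 5.09) and reached 9.07 in the leukemia with the highest Pax5. Selenbp1 and Selenbp2, selenium-binding proteins that share sequence and may share signal, had slopes of 0.26 and 0.20, and Pigo, an enzyme of GPI anchor synthesis, 0.20.

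**Figure D2:**
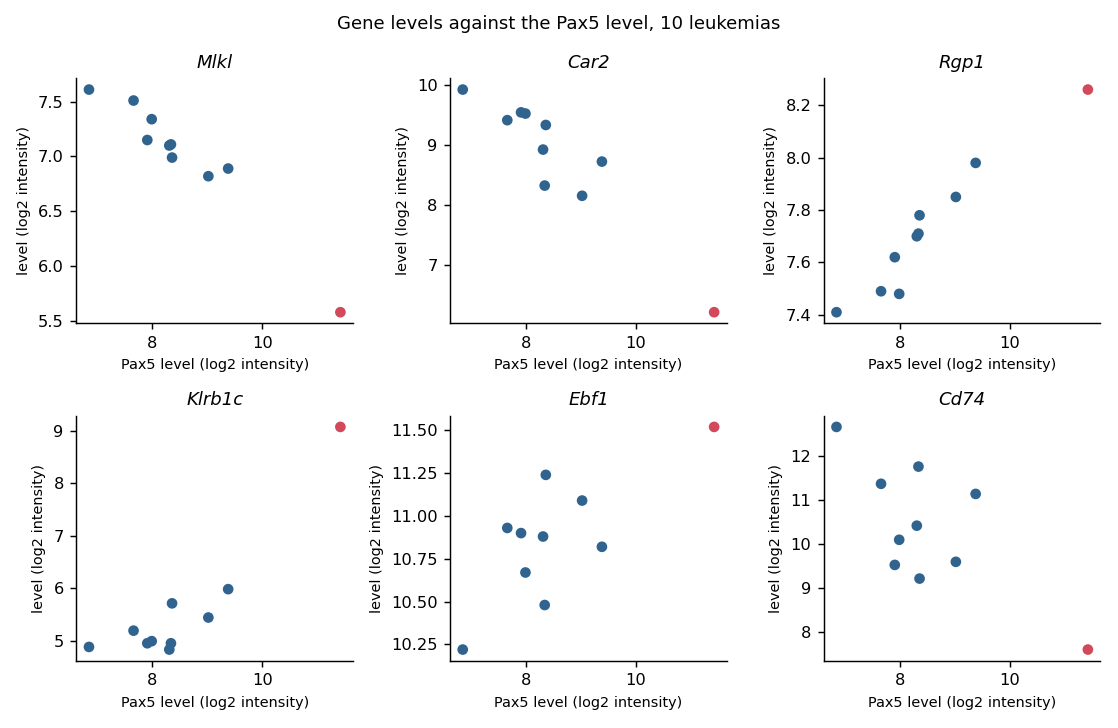
Levels of 6 genes (vertical axes) against the Pax5 level (horizontal axes), all in log2 intensity, with 1 point per leukemia and the leukemia highest in Pax5 in red. Mlkl and Rgp1 follow the Pax5 level through the other leukemias too, whereas Klrb1c is high only in the red point and the relation of Cd74 leans on the outermost points.

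Few of the known targets of PAX5 went with its level. The gene lists used here hold genes known for a role, and no member of any of the 26 lists passed the adjusted threshold in the Pax5 fit. Of the 18 tested genes that PAX5 activates, 3 were higher and 1 lower with Pax5 at an unadjusted p below 0.05, against the 7.03% and 3.84% of all genes, with a median slope of 0.10 against 0.01 over all genes. Cd79a had a slope of 0.25 (limma adjusted p = 0.29) and Spib, an ETS factor of B cells, 0.26 (limma adjusted p = 0.321), while Ikzf3, the Aiolos factor, had -0.33 (limma adjusted p = 0.412). Of the 20 genes that PAX5 represses, none was higher and 3 were lower (limma, unadjusted), with a median slope of -0.13, and 17 of the 20 slopes were at or below 0 where 59% of all genes had a positive slope. The 3 were Emb, an adhesion molecule (slope -0.71, limma adjusted p = 0.293), Cd33, a myeloid receptor (-0.60), and Grap2, a T-cell adaptor (-0.34). All 3 were lowest, and apart from the other 9, in the leukemia with the highest Pax5, at 7.72 against 10.01 to 11.45 for Emb, 6.94 against 9.05 to 10.43 for Cd33 and 8.57 against 10.24 to 10.80 for Grap2. The mean of the repressed list was lowest, at 7.93, in the leukemia with the highest Pax5, against a median of 8.84 and a highest value of 9.10. Members of both lists varied one by one, with a median r between pairs of members of 0.03 for activated and 0.08 for repressed genes, close to the 0.02 over all pairs of tested genes.

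Among the B-lineage transcription factors, 6 of 15 were higher and none lower with Pax5 (limma, unadjusted), against 7.03% and 3.84% of all genes. Tcf3 had a slope of 0.29, Sox4, a factor needed for pro-B survival, 0.20, Ebf1 0.23 and Foxo1, which drives Rag expression, 0.24, with limma adjusted p between 0.141 and 0.432. Tcf3 stood apart in leukemia 7, the highest in Pax5, at 10.54 against 9.01 to 9.59 in the others. Sox4, Ebf1 and Foxo1 had no leukemia apart but were also highest in leukemia 7, at 9.36, 11.52 and 9.55. For Ebf1, r with Pax5 fell from 0.75 to 0.13 without the 2 leukemias farthest in Pax5. Of the 16 pro-B and recombination genes, 5 were higher and none lower, led by Rag2 (slope 0.78, limma adjusted p = 0.164), and Smarca4, a chromatin remodelling ATPase (0.19). Smarca4 also stood apart in leukemia 7, at 11.40 against 10.38 to 10.85. Neither list count was taken again without leukemia 7, so how far the counts rest on it was not tested. Rag2 itself ran from 5.11 over 6.01 to 8.89 with a single leukemia high, whereas Rag1 ran from 7.66 over 9.19 to 9.94. Of the 16 neutrophil markers, 9 were lower with Pax5 and none higher (limma, unadjusted), against 3.84% and 7.03% of all genes. Among them Ctsg, a granule protease, had a slope of -1.08 (limma adjusted p = 0.363). The first component of the marker genes of neutrophils, macrophages, megakaryocytes, red cells and stroma had an r of -0.65 with Pax5 (permutation p = 0.0359), a rho of -0.48 (permutation p = 0.165) and an r of -0.37 without the 2 leukemias farthest in Pax5. The mean of the neutrophil markers ranged from 6.23 to 10.86, and their part in the Pax5 slopes was not tested beyond the fit with this component as covariate, in which no gene passed (limma, 877 at an unadjusted p below 0.05) and Mlkl had a slope of -0.492 against -0.444 without it.

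Many genes beside Pax5 on chromosome 4 had levels that went with its own, an observation made after their values were seen. Of the 25 tested genes on either side of Pax5 in gene order, 23 of 50 were higher with Pax5 at an unadjusted p below 0.05 and none was lower, against 7.03% of all genes. They included Gne, of sialic acid synthesis (slope 0.27), Trmt10b, a tRNA methyltransferase (0.28), and Dcaf10, a ubiquitin ligase adaptor (0.38), which ran from 6.71 over 7.08 to 8.61, as well as Rgp1, which lies 17 tested genes from Pax5. The leukemia with the highest Pax5, leukemia 7, had the highest value in 25 of the 50 genes. Its median difference from the typical level over the 50 genes was 0.23, while the other 9 leukemias lay between -0.06 and 0.04. Without it, 6 of the 50 were higher and 1 lower, against 5.73% of all genes higher, so most of the relation rested on this leukemia.

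Running medians over 31 neighbouring genes were taken over each chromosome in the 8474 genes with a mean level above 7 and a known place. Stretches in which the running median of a leukemia differed by more than 0.2 from the typical level over at least 31 successive windows numbered 7, in 5 leukemias and on chromosomes 4, 8 and 15 (rule chosen after the data were seen). On chromosome 4, 95 successive genes from Zfp292 to Tmem268, with Pax5 among them, were higher in leukemia 7, by a median of 0.59 or 1.51-fold, and 89.5% of them lay above the typical level, where the medians of the others ran from -0.11 to 0.18. Leukemia 10 was higher by 0.44 over 36 genes from Slc44a1 to Snapc3, a stretch that overlaps the first but leaves out Pax5. Leukemia 8 was lower by 0.34 over 37 genes from Plekhf2 to Pnrc1, near the start of the gene order. Pax5 RNA was not raised in leukemia 10, at 7.99.

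**Figure D3:**
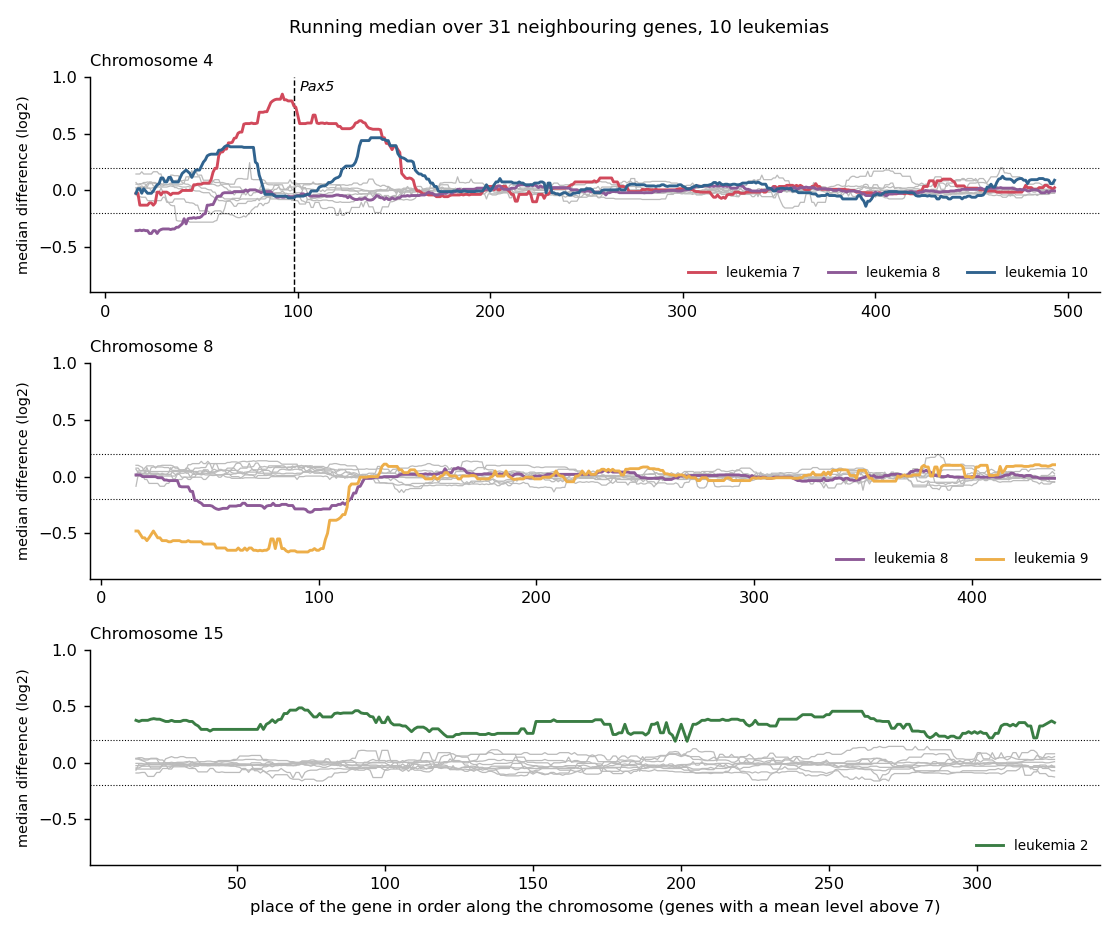
Running median over 31 neighbouring genes of the difference from the typical level (log2, vertical axes) against the place of the gene in order along chromosomes 4, 8 and 15 (horizontal axes), with 1 line per leukemia. Coloured lines are leukemias with a stretch beyond the dotted lines at 0.2 and -0.2 for at least 31 windows, grey lines are the others, and the dashed line marks Pax5, which lies inside the raised stretch of leukemia 7.

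On chromosome 8, leukemia 9 was lower over 98 genes from Arglu1 to Cdkn2aip, by 0.63 or 1.55-fold, with 99% of the genes below the typical level, and leukemia 8 was lower by 0.28 over 72 genes of the same part, from Vps36 to Wwc2. On chromosome 15, leukemia 2 was higher along nearly the whole chromosome, by 0.34 over 182 genes and by 0.35 over a further 124. The median of all 341 chromosome 15 genes was 0.34 in this leukemia, whereas on all other chromosomes with at least 100 such genes every leukemia lay between -0.058 and 0.04. Chromosome 15 carries Myc, whose level in this leukemia was 11.21, below the median of 11.42. The values are RNA levels, and copy number was not analysed here.

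Some lists of cell type markers and of shared programmes varied together across the leukemias, and others did not. For each of the 26 lists the median Pearson r between pairs of members was taken over the 10 leukemias, which is a description, since all pairs share the same 10 arrays. It was highest for megakaryocyte and platelet genes (0.96, 7 genes), neutrophil genes (0.93, 16 genes), mitosis genes (0.87, 20 genes) and MHC class II genes (0.84, 8 genes). DNA replication (0.77), macrophages (0.67), the interferon response (0.62), plasmacytoid dendritic cells (0.60) and MYC targets (0.58) came next. It was near the 0.02 of all gene pairs for p53 targets (-0.02), for B leukemia drivers and suppressors (0.00), for interleukin-7 and JAK-STAT genes (0.05) and for pre-B to immature B genes (0.03). B-lineage transcription factors (0.11), pro-B and recombination genes (0.14), RAS-MAPK feedback genes (0.18) and pre-B cell receptor signalling (0.20) lay only slightly higher. Several cell type lists were low too: progenitor (-0.01), plasma cell (0.01), mature B cell (0.11), NK cell (0.12) and erythroid genes (0.20). T cell (0.34) and stroma and endothelium genes (0.40) lay between.

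**Figure D4:**
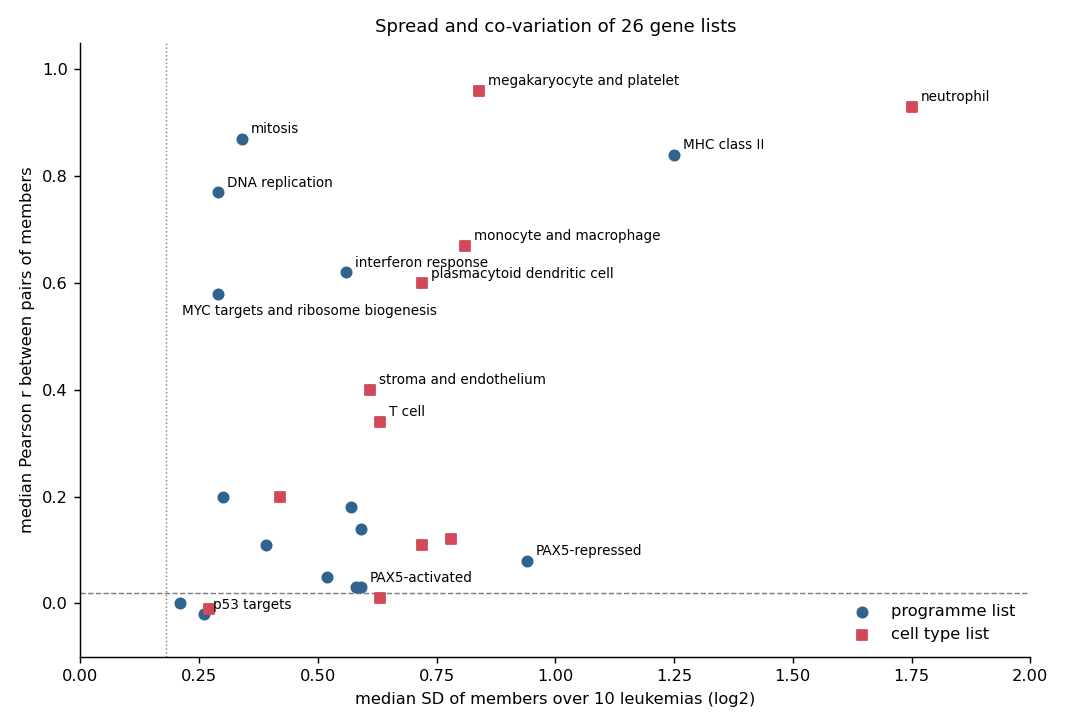
Median Pearson r between pairs of members (vertical axis) against the median SD of the members over the 10 leukemias (log2, horizontal axis) for the 26 gene lists, circles for programmes and squares for cell types. The dashed and dotted lines are the medians over all tested genes, 0.02 and 0.18. Neutrophil genes combine a large spread with a high correlation, and mitosis genes a smaller spread (0.34 against 1.75) with a high correlation.

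Neutrophil granule genes formed the widest set. Ltf, the granule protein lactoferrin, ran from 6.08 over 8.95 to 11.48, a 42.2-fold range, with 2 leukemias above a gap of 1.47. In a fit of every gene on the Ltf level, 34 genes passed (0.225%), 31 higher and 3 lower with Ltf, and at an unadjusted p 618 genes (4.09%) were higher. Of the 15 other neutrophil markers, 13 rose with Ltf after adjustment. S100a9 and S100a8, the 2 calprotectin chains, rose by 1.13 ± 0.032 and 1.09 ± 0.0491 per doubling of Ltf (limma adjusted p = 8.60e-08 and 4.44e-06), and Elane, neutrophil elastase, by 0.78 ± 0.0622 (limma adjusted p = 3.10e-04). Without leukemia 2 the count was 18, of which 17 were among the 34, and it was 22 without leukemia 6, 7 or 8. S100a9 followed Ltf with an r that rounds to 1.00. The mean of the neutrophil list ran from 6.23 over 8.44 to 10.86 and its median member had an SD of 1.75. The granule genes of early and late neutrophil stages, such as Mpo (slope 0.86) and Ngp (0.97), rose along with each other.

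Megakaryocyte and platelet genes formed a second set with another order of leukemias. Pf4, platelet factor 4, ran from 7.78 over 9.64 to 10.98 (SD 0.98), and 52 genes passed in the fit on Pf4 (0.344%), 51 of them higher; at an unadjusted p, 475 genes (3.14%) were higher. Of the 11 listed megakaryocyte and platelet genes 7 were tested, and all 6 besides Pf4 rose with it after adjustment. Among them were Treml1 (slope 0.90 ± 0.0646, limma adjusted p = 2.44e-04), Itga2b, the integrin of platelets (0.88, limma adjusted p = 0.00328), and Vwf (0.74, limma adjusted p = 0.00857). Without leukemia 4 the count was 29 and without leukemia 6 it was 31, with 28 and 31 of the 52 among them. Alox12, the platelet lipoxygenase, and F2rl2, a thrombin receptor, followed most closely, with r of 0.99 each. Itgb3, the partner chain of Itga2b and a member of the PAX5-repressed list, rose by 1.04 ± 0.096 (limma adjusted p = 0.00119). Ltf and Pf4 had an r of 0.02 with each other (permutation p = 0.96) and a rho of -0.14 (permutation p = 0.708), and r was 0.03 without the 2 leukemias farthest in Ltf.

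Macrophage genes were fewer. C1qb, a complement chain made by tissue macrophages, ran from 7.99 over 9.61 to 11.04, and only C1qc (slope 0.96, limma adjusted p = 0.00437) and the lysosomal Pld3 (0.75, limma adjusted p = 0.0145) rose with it after adjustment. At an unadjusted p, 9 of the 13 other macrophage markers were higher with C1qb, against 7.2% of all genes. Without leukemia 2 or without leukemia 9 no gene passed (limma, 1383 and 1959 genes at an unadjusted p below 0.05). Slc4a1, the anion exchanger of red cells, had an SD of 0.48 (6.28, 6.94 and 7.53 as lowest, median and highest), and a single gene rose with it, the red cell carbonic anhydrase Car1 (slope 1.64 ± 0.106, limma adjusted p = 3.53e-04). At an unadjusted p, 1 of 8 other erythroid markers was higher with it against 1.4% of all genes.

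Genes of dividing cells formed a set with a smaller range. Mki67, the Ki-67 proliferation antigen, ran from 10.71 over 11.37 to 11.73, a 2.03-fold range. At an unadjusted p all 19 other mitosis genes and 17 of 23 DNA replication genes were higher with Mki67, against 5.37% of all genes, and no gene passed after adjustment (limma, 1239 genes at an unadjusted p below 0.05, smallest adjusted p = 0.0716). Ttk, a spindle checkpoint kinase, had a slope of 1.06 and r = 0.94. The mean of the mitosis list ran from 8.84 over 9.52 to 9.83, and that of the replication list from 8.91 over 9.52 to 9.87, with the same leukemia lowest in both.

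Myc ran from 9.07 over 11.42 to 11.95, with the lowest leukemia 2.10 below the next and the others between 11.17 and 11.95. Of the 21 other MYC target and ribosome biogenesis genes, 11 were higher with Myc at an unadjusted p against 3.98% of all genes, and none after adjustment. The mean of the list was also lowest in leukemia 3, the lowest in Myc, at 8.81 against 9.24 to 9.75 in the others. The count of 11 was not taken again without that leukemia, so how far it rests on leukemia 3 was not tested. Srm, spermidine synthase, ran from 9.22 over 10.74 to 11.30, and Gnl3, a nucleolar GTPase, from 8.26 over 9.32 to 9.91. After adjustment 4 genes fell as Myc rose: Depp1, a FOXO target (slope -0.46), Nr4a1, an immediate early nuclear receptor (-1.06), Plaur, the urokinase receptor (-1.30), and Irx5, a homeobox factor (-0.74), each with a limma adjusted p of 0.0158. Without leukemia 3, the lowest in Myc, no gene passed (limma, 1381 at an unadjusted p below 0.05), and all 4 passed when any other leukemia was left out.

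MHC class II genes spread widely. Cd74, the invariant chain, ran from 7.61 over 10.26 to 12.66, a 33.1-fold range, and H2-Aa and H2-Ab1 from 8.44 over 10.16 to 12.55 and from 7.69 over 8.96 to 12.21. Of the 7 other class II genes, 6 were higher with Cd74 at an unadjusted p against 4.1% of all genes, and no gene passed after adjustment (limma, 1359 genes at an unadjusted p below 0.05, smallest adjusted p = 0.0584). H2-Aa and H2-Eb1 had slopes of 0.90 and 0.84 with r of 0.94 and 0.93. Ciita, their master regulator, had a median of 6.45 and reached 9.74 in 1 leukemia. H2-Ob, a chaperone chain found in B cells, was low in 2 leukemias instead, at 6.85 and 7.73, and lay between 8.79 and 9.37 in the others. The mean of the class II list was 11.15 in its highest leukemia, against a median of 8.78.

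The interferon genes varied as a set too. Irf7, the factor that amplifies type I interferon, ran from 6.95 over 8.32 to 9.21. Of the 18 other interferon response genes, 16 were higher with Irf7 at an unadjusted p against 3.48% of all genes, and 1, Ifit3, rose after adjustment (slope 0.48 ± 0.0523, limma adjusted p = 0.0461). Ifit3 passed when leukemia 6 was left out and lost its call when any other leukemia was. Usp18, which dampens interferon signalling, had the largest SD of the list, 1.47, with 1 leukemia at 10.86 against a median of 7.86. All 19 slopes of the list on Pax5 were at or below 0, none of them past the adjusted threshold. The list mean was lowest in leukemia 7, the highest in Pax5 (6.45), and highest in leukemia 2, the lowest in Pax5 (8.18). For Irf7 itself, r with Pax5 was -0.49 (permutation p = 0.146) and turned to 0.50 without the 2 leukemias farthest in Pax5.

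Several receptor and kinase genes were high in 1 or a few leukemias. Flt3, the FLT3 ligand receptor of early progenitors and a gene that PAX5 represses, ran from 9.25 over 10.99 to 13.29, with the highest leukemia 1.85 above the second. No gene passed in the fit on Flt3 (limma, 625 genes at an unadjusted p below 0.05, 2.01% of all genes higher). Kit ran from 7.19 over 8.04 to 11.65 and was high in 3 leukemias, at 9.84, 10.24 and 11.65. Stat5a and Stat5b, the signal transducers of cytokine receptors, were high in the same leukemia, leukemia 6, at 9.88 against a median of 8.04 and at 11.09 against 8.70. Jak1, a kinase of cytokine receptors, was high in leukemia 4, at 12.61 against a median of 10.59. Bcl2, the survival factor, was highest in leukemias 4 and 5 (11.65 and 11.20, median 9.90), and Pim1, a kinase that STAT5 induces, was also highest in leukemia 4 (10.44, median 9.38). In leukemia 6, where Stat5a and Stat5b were high, Pim1 was at its lowest (8.83). Socs2 and Cish, which STAT5 also induces, lay below their medians there (8.81 against 10.68 and 6.28 against 7.00), and Bcl2 lay above its own (10.26). Ebf1, fitted in the same way, had no gene past the threshold (limma, 1359 at an unadjusted p below 0.05), with 714 genes (4.72%) higher and 8 of 16 pro-B and recombination genes among them and 1 lower.

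The 293 genes with an SD above 1, without predicted and Y-linked genes, were clustered by correlation (average linkage, cut at 1 - r = 0.4). Some feedback genes of 2 signalling pathways fell into groups. These groups were formed from the same values and carry no test. Socs2 and Cish, feedback inhibitors that STAT5 induces, shared a group of 20 genes with Jchain, Epcam and Rasgrp3, and each had r = 0.95 with the group mean. Socs2 ran from 7.93 over 10.68 to 12.04. Socs2 lay above its largest gap in 6 leukemias and Cish in 4, and the group mean was low in 1. Dusp6, Spred1 and Etv5, which ERK signalling induces, shared a group of 9 with Cd72 whose mean was high in 6 leukemias, with r of 0.85, 0.88 and 0.90 with the group mean. Only these 3 of the 16 tested RAS-MAPK feedback genes had an SD above 1 and could enter a group. The median r between pairs of all 16 was 0.18. In leukemia 4 these 3 were lowest, as were Spred2 (7.76) and Spry2 (5.57), whereas Dusp5 was highest there (9.25). Dusp6 ran from 7.22 over 10.24 to 10.98, and Etv5 from 6.32 over 9.50 to 10.72. A group of 13 with Tlr7, Il18r1, Il18rap and cyclin D2 (Ccnd2) had a mean that was low in 1 leukemia.

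The largest groups were a set of 48 genes with Prtn3, Elane, Camp and Mpo, of neutrophils and their precursors, and a set of 44 with Ciita, H2-Eb1, Itgax, Cd80, Clec9a and Cxcl9, genes of antigen-presenting cells, whose mean was high in 1 leukemia. Pax5 fell in a group of 15 with Peg10, Sgce, Fcmr, Syt1, Klrb1c, Rag2 and Lef1, whose mean was also high in 1 leukemia, leukemia 7. In that group Pax5 had r = 0.84 with the group mean, below Peg10 and Fcmr at 0.99. Peg10 and Sgce are neighbouring imprinted genes.

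The first 3 principal components over all tested genes held 27.6%, 16.8% and 14.1% of the variance, and 1 leukemia supplied most of each of the first 2, 63.8% and 56.2% of the score variance. The first set Clec4a1, Plbd1, Cxcl9, Ly6g and Mpo against Rsph9, Niban3 and Pax5, and its absolute r with the non-lymphoid marker component was 0.79 and with Pax5 0.64. The second set Peg10, Cd72, Aqp11 and Lef1 against Rasgrp3, Jchain, Socs2 and Kir3dl1, with an absolute r of 0.62 with Pax5 and 0.13 with the marker component. The third set Lvrn, Slc17a8, Bst1 and Themis against Serpinb9d and neutrophil genes.

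Among the 11 anchor genes 55 pairs were compared, with the p-values of r and of rho adjusted over the 55. By r, 1 pair passed, and by rho none. Ebf1 and Cd74 ran opposite to each other, with r = -0.90 (permutation p = 4.60e-04, adjusted 0.0253), rho = -0.82 (permutation p = 0.00587, adjusted 0.323) and r = -0.70 without the 2 leukemias farthest in Ebf1. With 1 leukemia left out r lay between -0.95 and -0.84. The pair passed no more in 7 of the 10 cases that left out 1 leukemia (leukemias 1, 2, 3, 4, 6, 7 and 8). Pax5 had r = 0.75 with Ebf1 (permutation p = 0.0129, adjusted 0.311; rho = 0.52, permutation p = 0.133) and r = -0.73 with Cd74 (permutation p = 0.017, adjusted 0.311; rho = -0.54, permutation p = 0.113). Without the 2 leukemias farthest in Pax5 these were 0.13 and 0.01, so both relations rested on those leukemias. The median absolute r of the 55 pairs was 0.27.

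**Figure D5:**
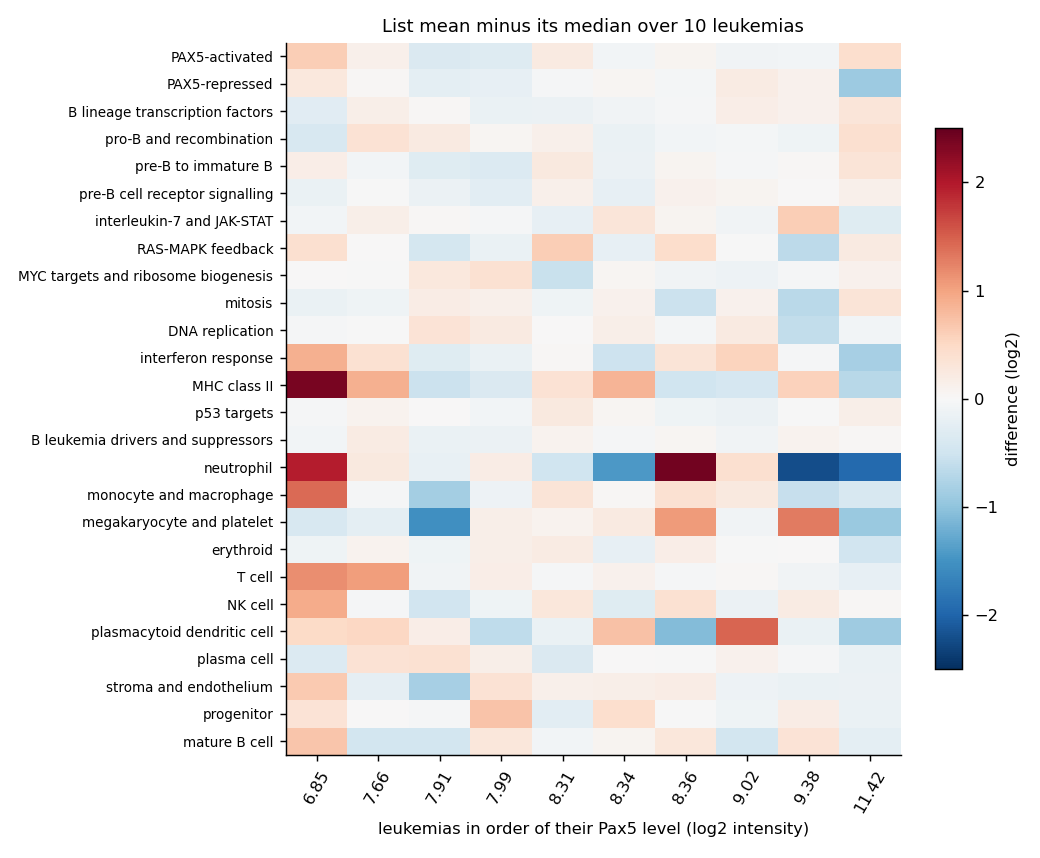
Mean of each of the 26 gene lists minus its median over the leukemias (log2, colour), with the 10 leukemias from left to right in the order of their Pax5 level, which is printed below each column. The neutrophil, MHC class II and megakaryocyte and platelet rows have the widest spread of list means (SD 1.52, 0.96 and 0.84), and the PAX5-activated row does not follow the order of the columns.

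The leukemias carry mouse numbers that begin with U (5), Y (4) or L (1), and the labels do not say what the letter stands for. No gene differed between U and Y after adjustment (limma, smallest adjusted p = 0.0792, 600 genes at an unadjusted p below 0.05, or 3.97%). Pax5 had a mean of 8.24 ± 1.02 (SD, n = 5) in U and 9.01 ± 1.62 (SD, n = 4) in Y, and the ranges overlapped. Xist RNA exceeded that of the Y-linked Eif2s3y in 5 leukemias and lay below it in 5, so both sexes appear to be present.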

How the data were processed

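The deposited series table held log2 intensities of 28944 probe sets, a microarray summary made by the authors with Transcriptome Analysis Console, per the submitters' processing notes; the background correction and normalization are not given in the sources used here. Of these, 21789 probe sets had 1 gene symbol, 1621 several and 5534 none in the platform annotation. The probe set with the highest mean over the 10 arrays stood for each of 19938 symbols, and 15114 above the 30th percentile of their array on at least 3 arrays were tested. Gene order came from RefSeq (GRCm38.p6), used for order only. Each gene was fitted on the level of an anchor gene with limma 3.58.1 in R 4.3.3 (lmFit, eBayes with trend, two-sided, Benjamini-Hochberg, threshold 0.05), and a code check on simulated data was run first. Correlations used 100000 permutations in Python 3.11.15. Alternatives changed the filter, variance model, array weights, normalization, covariates and samples. The genes named were the anchors, the genes of smallest p with Pax5, the 25 of largest SD without predicted genes, receptor segments, Xist and Y-linked genes, the extreme members of each list, the genes closest to each anchor and the highest component loadings; neighbours of Pax5, stretches of neighbouring genes, group members and single list members beyond these were chosen after their values were seen. The leukemias, gene lists and anchors were chosen with earlier results of these data known. The number of arrays limits the precision, and the p-values measure the spread between these mice.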

Additional observations from a re-analysis of the deposited data

Results flagged for a closer look

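The genes that the report names with their levels, slopes or groups, the list means and the medians of 20 chromosomes were checked for a leukemia apart from the other 9 by Dixon's gap ratio at its 95% critical value. Xist and Eif2s3y were left out. Of 185 values, 139 of them single genes, 48 had such a leukemia. Chance flags about 1 in 20 groups, the values share the same 10 leukemias, and some genes were named because they stood out. Among all tested genes the rate was above 1 in 20, with the highest leukemia apart in 6.93% and the lowest in 4.01%. The highest leukemia stood apart in 25 genes, with these gap ratios: Syt1 (0.879), Stat5a (0.876), Peg10 (0.841), Fcmr (0.829), Irx5 (0.804), Jak1 (0.782), Trmt10b (0.752), Gne (0.735), Stat5b (0.732), Klrb1c (0.729), Sgce (0.726), Plaur (0.664), Depp1 (0.662), Nr4a1 (0.658), Il19 (0.655), Clec4a1 (0.626), Tcf3 (0.621), Cxcl9 (0.606), Dcaf10 (0.568), Rag2 (0.558), Itgax (0.554), Smarca4 (0.539), Clec9a (0.534), Ciita (0.483) and Pigo (0.476). The lowest stood apart in 14 genes: Grap2 (0.749), Tlr7 (0.735), Myc (0.729), Il18r1 (0.671), Il18rap (0.660), Emb (0.614), Mlkl (0.611), Srm (0.611), Cd33 (0.605), Ccnd2 (0.604), Tox (0.534), Car2 (0.523), Gnl3 (0.503) and Rsph9 (0.489). Among list means, the MHC class II list had its highest leukemia apart (0.487), and the PAX5-repressed list (0.575) and the DNA replication list (0.561) had their lowest apart. Among chromosome medians, that of chromosome 15 had its highest leukemia apart (0.818), at 0.34 on the log2 scale. The other chromosome medians, which all lay between -0.058 and 0.04, had these leukemias apart: the highest on chromosome 17 (0.556) and the lowest on chromosomes 2 (0.500), 3 (0.500), 11 (0.500) and 8 (0.467).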

How the results depend on the processing

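The single gene that passed with Pax5 became 2 with the filter at the 50th percentile or with sex as covariate, 3 in limma without the trend, and 0 with ranks of Pax5, with the mouse letter or the marker component as covariate, without the 2 leukemias farthest in Pax5 and without leukemias 2, 6 and 7; leaving out 1 leukemia gave 0 to 3. For Myc the count was 0 with array weights and 7 with median centring (0 to 12 with 1 leukemia left out). For Irf7 it was 0 without a filter, at the 50th percentile, without the trend and with array weights, and 2 with centring (0 to 3). For Cd74 it was 4 at the 50th percentile (0 to 3), and for C1qb 11 at the 50th percentile and 1 with array weights (0 to 10). With 1 leukemia left out, counts ran from 18 to 32 for Ltf, 29 to 73 for Pf4 (most without leukemia 2, fewest without leukemia 4), 0 to 1 for Mki67, 1 to 2 for Slc4a1 and 0 to 3 for Ebf1. The anchor pair that passed was lost after quantile normalization (0), and leaving out 1 leukemia gave 0 to 1. The r of Pax5 with Cd74 turned to 0.01 without the 2 leukemias farthest in Pax5. The neighbours of Pax5 at an unadjusted p numbered 15 with the marker component, 11 with ranks, 3 without leukemias 2, 6 and 7 and 3 without the 2 farthest (6 to 24 with 1 leukemia left out). Stretches of neighbouring genes numbered 11 with windows of 21 genes and 4 with 51, settings chosen after the data were seen. On chromosome 4, windows of 51 genes left only the stretch of leukemia 7. With windows of 21 genes leukemia 10 was also higher from Akirin2 to Galt (0.44), and after quantile normalization from Bach2 to Galt (0.39), without Pax5 in either. The median SD was 0.132 without a filter and 0.211 at the 50th percentile. The cause of these changes was not tested. No paired analysis was possible because the leukemias were compared only with each other.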
